A study of Mus musculus with 48 samples.

Results

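The nuclear genes of respiratory complexes I, II, III and V were followed while C2C12 myoblasts became myotubes. The members were the genes whose symbol in the array's annotation begins with Nduf and a letter a, b, c, s or v before a digit, is Sdha, Sdhb, Sdhc or Sdhd, or begins with Uqcr or Atp5. The rule took 64 of the 18193 genes measured: 35 of complex I, 4 of complex II, 8 of complex III and 17 of complex V. C2C12 is an established mouse myoblast line that leaves the cell cycle and fuses when serum is withdrawn, and no group carried an engineered allele. RNA was measured on 48 Affymetrix MOE430v2 arrays, 3 in each of 16 groups. Cells in DMEM with 20% fetal bovine serum were taken 24 h before induction (-24 h) and at 0 h. Cells moved to DMEM with 2% horse serum were taken 0.5, 1, 1.5, 2, 3, 6, 9, 12, 24, 48, 96 and 144 h later. The last 2 groups were given cycloheximide, an inhibitor of translation, at 50 µM from 1 h before the change of medium. They were taken at 1 h and 3 h of differentiation, that is with 2 h or 4 h of drug exposure. The 3 arrays of a group came from successive passages of the line. No group stayed in growth medium after 0 h, so medium and time in culture cannot be told apart, and no drug-treated cells at 0 h are named.

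The respiratory chain sits in the inner mitochondrial membrane. Complex I (NADH dehydrogenase, the Nduf genes) and complex II (succinate dehydrogenase, the Sdh genes) pass electrons from NADH and succinate to ubiquinone. Complex III (the Uqcr genes) passes them on to cytochrome c, and complex V (ATP synthase, the Atp5 genes) uses the proton gradient built by the pumping complexes to make ATP. Differentiated muscle relies on this machinery more than dividing myoblasts do. Complex IV and the subunits encoded in mitochondrial DNA lie outside the rule, and Ndufa4, which the rule takes by its symbol, is now known as a subunit of complex IV; the counts for complex I include it and its paralog Ndufa4l2.

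Levels are deposited RMA values on a log2 scale. A difference is a log2 fold change with its standard error (SE) from limma, n = 3 arrays per group, and a gene was called risen or fallen at a Benjamini-Hochberg adjusted p under 0.05 over all 18193 genes. Levels of different genes are not compared, since each probe set has its own response. Of 10 genes of differentiating muscle, 9 rose at 144 h with a median difference of 4.01, and their mean level per array went from 7.77 to 9.52 at 0 h to 12.14 to 12.52 at 144 h. All 6 measured genes of dividing cells fell at 144 h, and their mean level per array went from 10.02 to 10.18 down to 7.17 to 8.14. The mean level per array of 7 adipocyte markers stayed between 3.58 and 3.73 at both times, below every array median. Among these 7, Fabp4 had risen at 144 h by 0.28 (SE 0.11, adjusted p 0.0418) and Pparg had fallen (-0.90, SE 0.20, adjusted p 0.000702). Of the 5 measured genes in each of the leukocyte, bone and cartilage, and smooth muscle and endothelium lists, limma called Sox9 of bone and cartilage fallen at 144 h. Among the other comparisons counted, it called 2 leukocyte genes risen and 1 of bone and cartilage fallen at 96 h. At 48 h it called 1 of smooth muscle and endothelium risen. With cycloheximide, as deposited, it called 1 leukocyte gene and 1 of bone and cartilage risen at 1 h. At 3 h with the drug these were 2 of bone and cartilage and 1 of smooth muscle and endothelium. In these bulk samples, more cells of a type and more RNA per cell cannot be told apart, and the part of the changing share of muscle and dividing cells in the results was not tested.

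Subunits of each of the 4 complexes rose by small amounts as the cells differentiated, and the calls began at 24 h. At 144 h, 45 of the 64 members had risen (70.3%) and 0 had fallen, where 13.5% of all genes tested were called risen and 14.9% fallen. Of the 64 members, 62 had a mean level above the median of all genes. Shares of all genes, here and below, cover genes of every level, so they are not shares among genes of like level. The median member was higher by 0.36 on the log2 scale, a ratio of 1.28, where the median of all genes was higher by 0.04. The quartiles over the members were 0.23 and 0.53 and 60 members lay above 0. On the probe sets used, only Ndufs4 and Ndufb1 reached a 2-fold change. For each of the 45 risen members the 3 arrays at 144 h all lay above the 3 at 0 h. That count uses the arrays that gave the calls, so it adds no separate evidence, and it was not made over all genes. Complex I had the most calls, with 27 of 35 risen and a median difference of 0.44. Complex V followed with 11 of 17 risen and a median of 0.30, complex III with 5 of 8 and 0.33, and complex II with 2 of 4 and 0.33. Whether the complexes differed from each other was not tested.

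**Figure D1:**
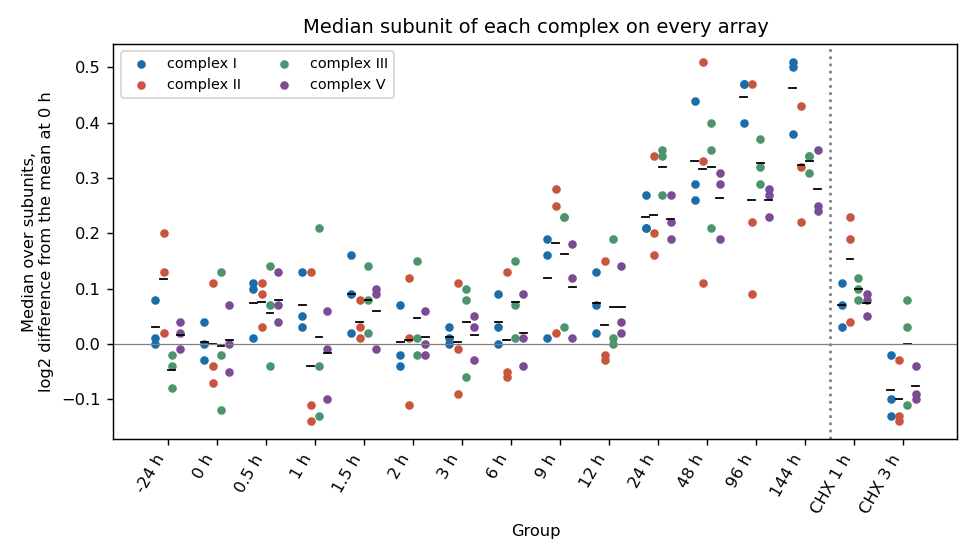
Median over the subunits of each complex on every array, as the log2 difference from the gene's mean at 0 h (y axis), for the 16 groups (x axis; CHX, cycloheximide). Points are single arrays and black bars the mean of 3; the medians stay between -0.14 and 0.28 through 12 h and lie between 0.09 and 0.51 from 24 h to 144 h.

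In the first 12 h of differentiation the members moved little. limma called 0 of 64 members at each of the 8 times from 0.5 h to 12 h. Few genes of any kind were called this early: 0.0385% of all genes at 0.5 h, 0.192% by the 1 h arrays, 0.423% after 1.5 h, 0.517% at 2 h, 0.39% by 3 h, 0.506% after 6 h, 1.36% at 9 h and 2.82% at 12 h. At an unadjusted p under 0.05 the members numbered between 2 and 5 at these times, except at 9 h, with 15. The median member at 9 h was higher by 0.12, where the median of all genes was higher by 0.01, and 54 of 64 members lay above 0. Shares of all genes above 0 or at an unadjusted p under 0.05 are not given here. At 9 h the array of replicate 3 stood below the others: its median over all members was 0.01 above 0 h, against 0.18 and 0.17 for replicates 1 and 2. Without that array 2 members were called at 9 h, and without replicate 2 of 12 h 1 was called at 12 h.

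At 24 h, 26 members had risen and 0 had fallen, beside 6.56% of all genes risen and 7.42% fallen, and the median member was higher by 0.25. That count rested on single arrays: it was 10 without replicate 1 and 16 without replicate 2 of 24 h, and 14 and 11 without replicates 2 and 3 of 0 h. At 48 h, 41 members had risen (all genes 12.4% risen, 14.3% fallen) with a median of 0.32. At 96 h, 45 had risen and 1 had fallen (all genes 15.5% and 17.1%) with a median of 0.37. The step at which a member was first called was 24 h for 26 members, 48 h for 16, 96 h for 7 and 144 h for 3, and 12 members were called at none of the 12 times. Called risen at all of 24, 48, 96 and 144 h were 24 members. These comparisons share the 0 h arrays, and neither this count nor that of first calls was made over all genes.

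No single step between neighbouring times carried many calls. Between neighbouring times limma called 0 members from 12 h to 24 h (1.34% of all genes called). At that step 60 of 64 members lay above 0 and 26 had an unadjusted p under 0.05. The median member was higher by 0.16, where the median of all genes was higher by 0.02. Shares of all genes above 0 or at an unadjusted p under 0.05 are not given here. From 24 h to 48 h limma called 2, both risen (3.89% of all genes called), Ndufb1 by 0.49 (SE 0.15, adjusted p 0.0495) and Ndufb7 by 0.29 (SE 0.08, adjusted p 0.0391). That count was 0 without any one of replicates 2 and 3 of 24 h or 1 and 2 of 48 h, and 1 without replicate 1 of 24 h. From 48 h to 96 h it called 0 (4.64% of all genes; 5 members at an unadjusted p under 0.05), or 1 without replicate 2 of 96 h. From 96 h to 144 h it called 0 (0.313% of all genes; 3 at an unadjusted p under 0.05), and the median member differed by 0.01. An F-test over the 12 differentiation times called 49 of the 64 members, beside 38.2% of all genes.

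**Figure D2:**
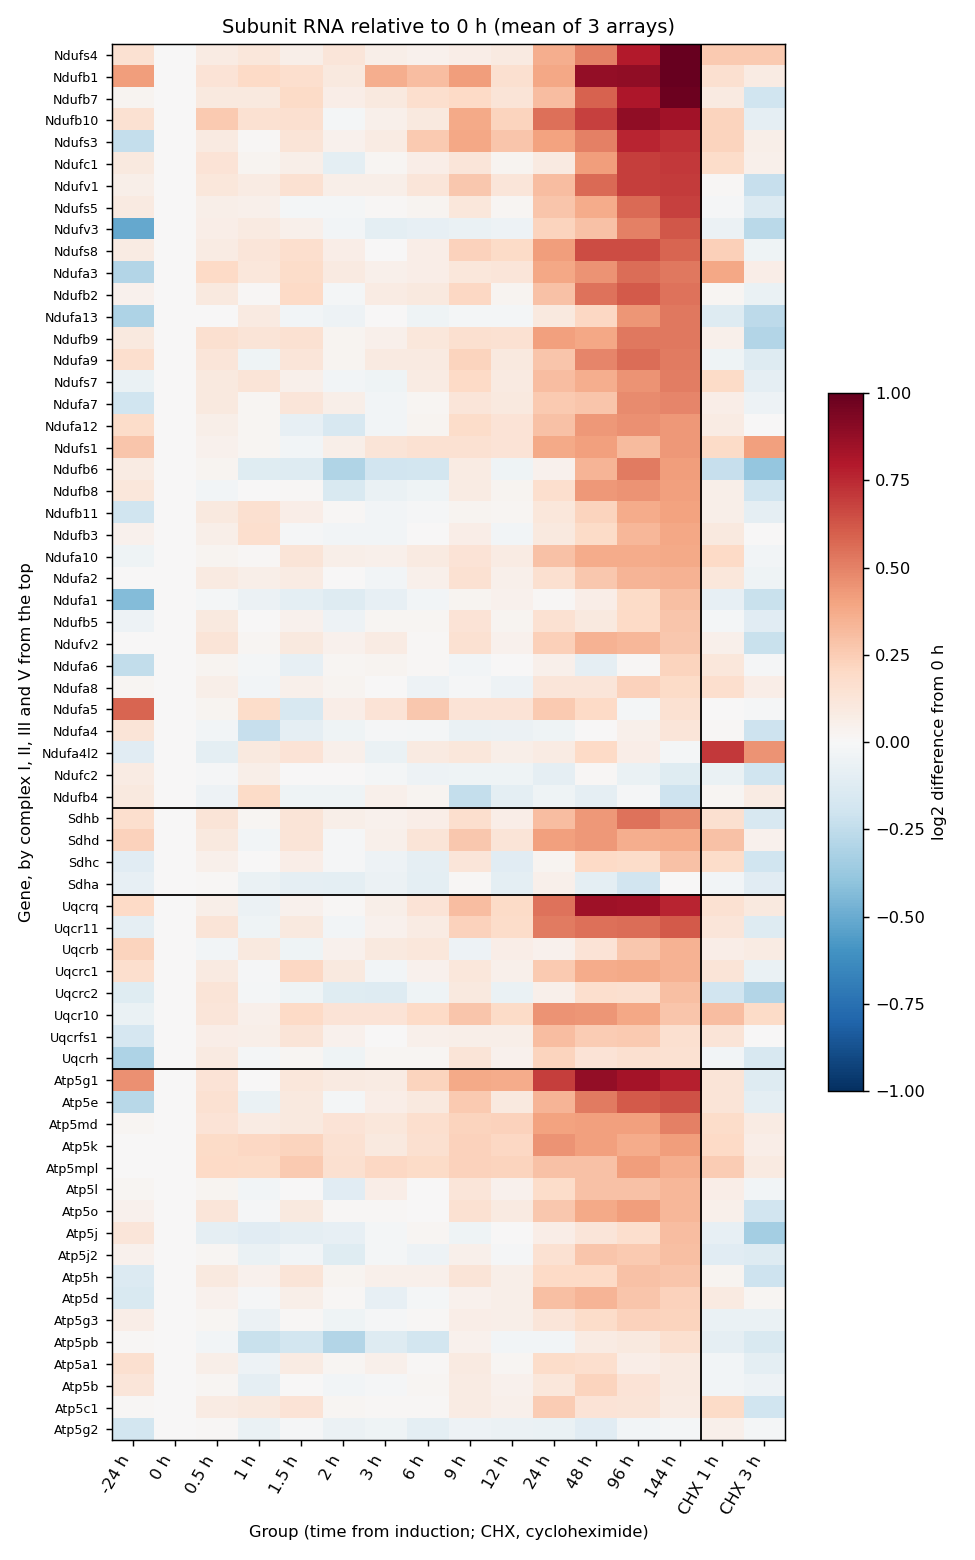
Mean log2 difference from 0 h (colour, red higher and blue lower, 3 arrays per mean) of the 64 subunit genes (rows, by complex and by change at 144 h) in the 16 groups (columns; CHX, cycloheximide). The colours are faint through 12 h and deepen from 24 h, to a highest value of 1.02 for Ndufs4 at 144 h; the colour scale ends at 1 and -1.

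Within complex I, Ndufs1, Ndufs3, Ndufs7, Ndufs8, Ndufv1 and Ndufv2 belong to the catalytic core. All 6 had risen at each of 24, 48, 96 and 144 h, with a median difference of 0.34 at 24 h and 0.55 at 144 h. Ndufv1, which binds NADH and the flavin, stood at 10.51, 10.41 and 10.42 on the 0 h arrays and at 10.97, 11.29 and 11.19 on the 144 h arrays, a rise of 0.70 (SE 0.08, adjusted p 1.47e-08). The groups did not overlap. Ndufs1, the large iron-sulfur subunit, stood between 9.29 and 9.45 at 0 h and at 9.66 or higher on every array at 144 h, a rise of 0.43 (SE 0.10, adjusted p 0.000565). The 3 late arrays spread over a wider range than the early ones but all lay above them.

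The other 29 Nduf genes encode, apart from Ndufa4 and its paralog, accessory subunits of complex I, which surround the core and are needed for its assembly and stability. At 144 h 21 of them had risen, 0 had fallen, and their differences ran from -0.21 to 1.02. Ndufs4, an accessory subunit of the NADH-binding arm whose loss causes Leigh syndrome, had levels of 9.20, 9.05 and 9.26 at 0 h, 9.67, 9.43 and 9.48 at 24 h, and 10.40, 10.12 and 10.06 at 144 h. Its rise at 144 h was 1.02 (SE 0.11, adjusted p 6.39e-10), a ratio of 2.03, and the 3 groups of arrays did not overlap. Ndufb7, a small subunit of the membrane arm, had levels of 11.42, 11.39 and 11.26 at 0 h, 12.06, 11.99 and 11.81 at 48 h, and 12.21, 12.51 and 12.31 at 144 h, a rise of 0.98 (SE 0.08, adjusted p 3.05e-12). Its second probe set gave 1.02 (SE 0.14). Ndufb1, also of the membrane arm, was higher by 1.01 (SE 0.15, adjusted p 7.35e-07) at 144 h, on a dim probe set whose levels ran from 5.74 to 7.13 over the 48 arrays. The 0 h arrays of Ndufb1 lay close together at 5.94, 5.87 and 5.94, and those of 144 h at 6.61, 7.04 and 7.13.

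Other accessory subunits of the membrane arm rose early. At 24 h Ndufb10 was higher by 0.54 (SE 0.13, adjusted p 0.00262), Ndufb9 by 0.41 (SE 0.10, adjusted p 0.0028), and the core subunit Ndufs8 by 0.42 (SE 0.12, adjusted p 0.0169). The call of Ndufs8 at 24 h was lost without replicate 1 or 2 of 24 h or replicate 3 of 0 h. The 8 Nduf genes not called at 144 h were Ndufa4, Ndufa4l2, Ndufa5, Ndufa6, Ndufa8, Ndufb4, Ndufb6 and Ndufc2. Ndufb6 was high at 0.42 but with an SE of 0.18. A second bright Ndufb6 probe set, at a mean level of 10.48, was called risen (0.36, SE 0.09, adjusted p 0.00118 over all probe sets). The dim probe set of Ndufb4, at 3.05 to 3.75 over all arrays, lay below every array median. Ndufa4 stood at 11.52, 11.32 and 11.34 at 0 h and at 11.72, 11.38 and 11.43 at 144 h, with overlapping arrays. For the pair Ndufa4 and Ndufa4l2, its paralog, the change at 144 h differed by 0.14 (95% interval -0.29 to 0.56; adjusted p 0.52 over the 4 pairs of paralogs, limma), an interval that leaves room for a difference either way.

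**Figure D3:**
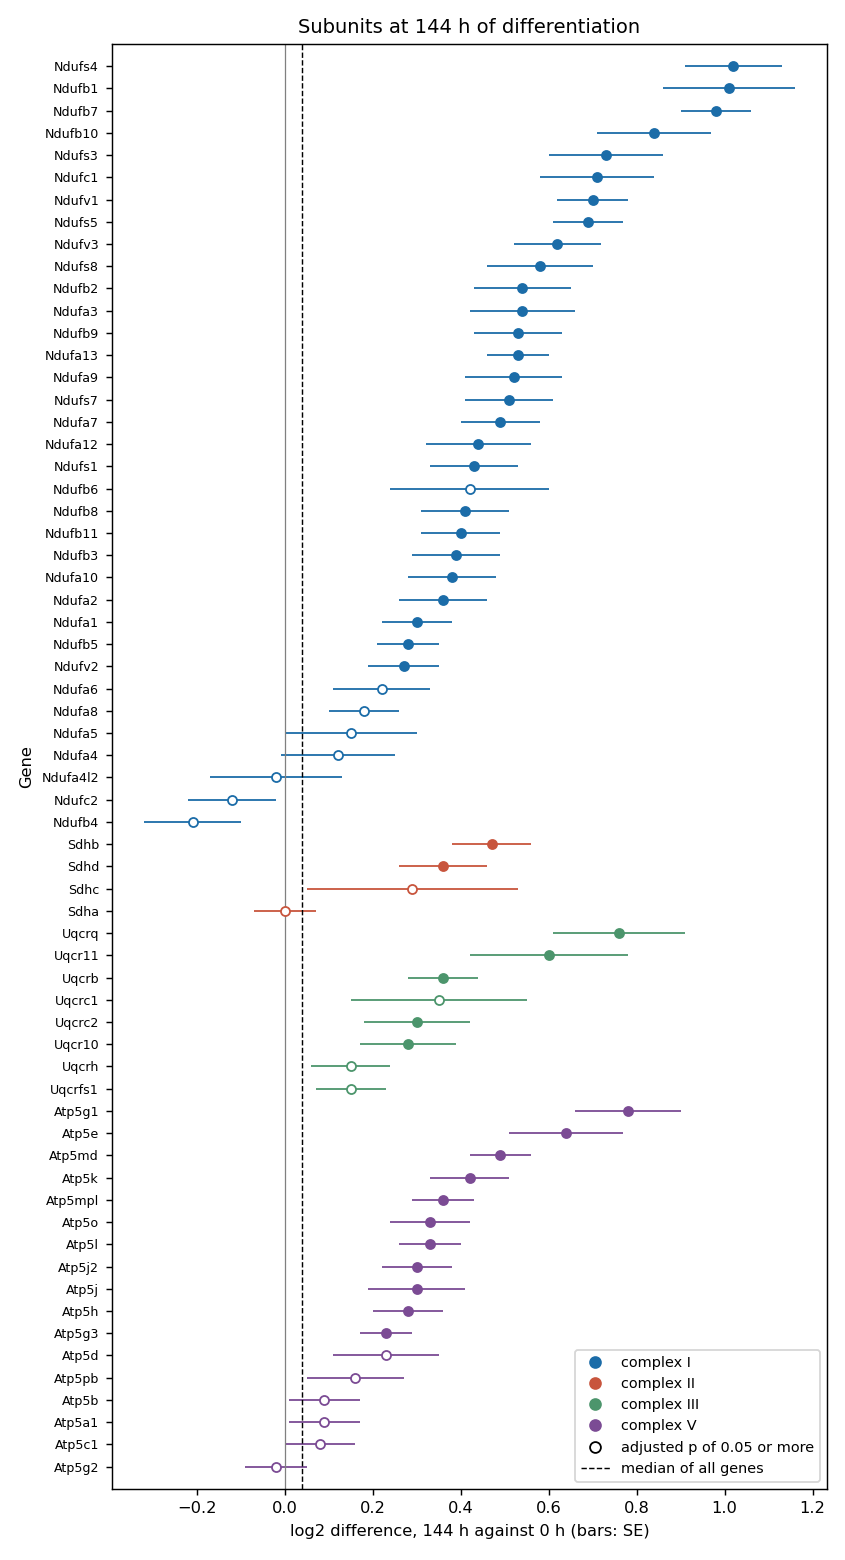
Log2 difference of each of the 64 subunits between 144 h and 0 h (x axis; bars, SE from limma, n = 3 arrays per group), ordered within each complex (y axis). Filled points have an adjusted p under 0.05; 60 of 64 points lie above 0, the open points crowd near it, and the dashed line marks the median of all genes at 0.04.

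Complex II, the only respiratory complex that is also an enzyme of the citrate cycle, split between its subunits. Sdhb, the iron-sulfur subunit, stood at 11.12, 11.08 and 11.09 at 0 h and at 11.44, 11.65 and 11.62 at 144 h, a rise of 0.47 (SE 0.09, adjusted p 8.21e-05), and Sdhd, a membrane anchor, rose by 0.36 (SE 0.10, adjusted p 0.00319). Both were already called at 24 h, Sdhd by 0.41 (SE 0.10, adjusted p 0.00262) and Sdhb by 0.31 (SE 0.09, adjusted p 0.0184), the latter not without replicate 1 of 24 h or replicate 2 or 3 of 0 h. Sdha, the flavoprotein that oxidises succinate, did not follow. Its arrays read 10.47, 10.39 and 10.34 at 0 h, 10.28, 10.12 and 10.23 at 96 h, and 10.33, 10.45 and 10.41 at 144 h. The difference was -0.19 (SE 0.07, adjusted p 0.0475) at 96 h, with no overlap of the arrays, and 0.00 (SE 0.07, adjusted p 0.999) at 144 h. On the probe sets used, the fall at 96 h was the only one among the members after 0 h in the untreated cells. It lost its call in 8 alternatives (adjusted p 0.0502 to 0.25). Among them were those without replicate 2 or 3 of 96 h or replicate 1 or 2 of 0 h. A second bright Sdha probe set, at a mean level of 9.93, was called fallen at 144 h (-0.25, SE 0.08, adjusted p 0.0237 over all probe sets). Sdhc, the second membrane anchor, had a wide spread, with 9.46, 8.89 and 8.93 at 0 h and 9.47, 9.46 and 9.23 at 144 h, and was not called (0.29, SE 0.24).

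In complex III all 4 of the small subunits Uqcrb, Uqcrq, Uqcr10 and Uqcr11 had risen at 144 h, with a median of 0.48, and 1 of the other 4, Uqcrc2. Uqcrc2 was near the threshold, at 0.30 (SE 0.11, adjusted p 0.0493 over all probe sets, limma). Its other bright probe set, at a mean level of 10.27, gave 0.16 (SE 0.10, adjusted p 0.306) and was not called. The median of the other 4 was 0.23, and whether the small subunits differed from them was not tested. Uqcrq, which contacts the cytochrome b subunit, stood at 10.46, 10.27 and 10.07 at 0 h, 11.36, 11.01 and 10.98 at 48 h, and 10.94, 11.11 and 11.03 at 144 h. Its rise was 0.54 (SE 0.15, adjusted p 0.0149) at 24 h, 0.85 (SE 0.15, adjusted p 5.16e-05) at 48 h and 0.76 (SE 0.15, adjusted p 0.000165) at 144 h. These values rest on 1 bright probe set of the _s_at type, which can read related transcripts; its 3 other probe sets, at mean levels of 3.96, 4.34 and 4.36, gave -0.03, 0.16 and 0.01 at 144 h, none called. The 24 h call of Uqcrq was also lost without replicate 1 of 24 h or replicate 3 of 0 h. Uqcr11, another small subunit, rose by 0.60 (SE 0.18, adjusted p 0.0075) at 144 h, from 11.03, 10.82 and 10.59 to 11.33, 11.61 and 11.31, a call not kept without replicate 3 of 0 h (at all of the 4 late times) or replicate 2 of 144 h. Uqcrb, which binds near the ubiquinone site, rose late: it was first called at 96 h, and at 144 h it was higher by 0.36 (SE 0.08, adjusted p 0.00104). Uqcr10 rose by 0.45 (SE 0.11, adjusted p 0.00292) at 24 h and by 0.28 (SE 0.11, adjusted p 0.0444) at 144 h. Its other probe sets, at mean levels of 8.30 and 8.99, gave larger rises at 144 h. These were 1.13 (SE 0.14, adjusted p 7.08e-08 over all probe sets) and 0.93 (SE 0.10, adjusted p 3.43e-09). The 24 h call of Uqcr10 was lost without _s_at, _x_at and _a_at probe sets (limma, adjusted p 0.308). The Rieske iron-sulfur protein Uqcrfs1 was higher by 0.30 at 24 h, where it was called, and by 0.15 (SE 0.08, adjusted p 0.164) at 144 h. The core protein Uqcrc1 was not called at any time, with 0.35 (SE 0.20) at 144 h and arrays from 10.09 to 10.60 at 0 h.

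The subunits of complex V were grouped by position in the enzyme, and differences between positions were not tested. The 5 small membrane subunits Atp5j2, Atp5k, Atp5l, Atp5md and Atp5mpl had all risen at 48, 96 and 144 h, with differences at 144 h from 0.30 to 0.49. Atp5md led them, from 10.24, 10.17 and 10.32 at 0 h to 10.64, 10.70 and 10.88 at 144 h, a rise of 0.49 (SE 0.07, adjusted p 1.17e-06). In the peripheral stalk, which holds the catalytic head still, 2 of 4 subunits had risen at 48 h (Atp5h and Atp5o) and 3 at 144 h (Atp5h, Atp5j and Atp5o). Atp5pb, the remaining stalk subunit, differed by 0.16 (SE 0.11) at 144 h on the probe set used and was not called. A second bright Atp5pb probe set, at a mean level of 10.88, was called risen (0.35, SE 0.11, adjusted p 0.0116 over all probe sets, limma). In the head and central stalk, where ATP is made, 1 of 5 had risen at 24 h (Atp5c1, 0.24, adjusted p 0.0397), 3 at 48 h (Atp5b, Atp5d and Atp5e) and 1 at 144 h. Atp5d, the delta subunit, was higher at 48 h by 0.35 (SE 0.12, adjusted p 0.0333). The one called at 144 h was Atp5e, the epsilon subunit, at 10.86, 10.77 and 10.55 at 0 h and at 11.10, 11.56 and 11.44 at 144 h, a rise of 0.64 (SE 0.13, adjusted p 0.000103). The alpha and beta subunits Atp5a1 and Atp5b, which form the catalytic sites, were both higher by 0.09 (SE 0.08 each, adjusted p 0.48 and 0.494). Of these, Atp5b was called risen at 48 h alone, by 0.22, and Atp5a1 at no time.

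The c ring, the rotor of ATP synthase, is built from a subunit that 3 genes encode. Atp5g1, Atp5g2 and Atp5g3 differ in their import sequences and yield the same mature protein. Their 250 bases before the start site are shown because the 3 genes behaved differently. The sequences are RefSeq's, 5' to 3' on the gene's strand in build GRCm38.p6, with matches to the motif of nuclear respiratory factor 1 (NRF1), which is GCGCA and GCGC separated by 1 base of any kind, on either strand, in capitals.
Atp5g1 (chr11:96075632-96075881, minus strand): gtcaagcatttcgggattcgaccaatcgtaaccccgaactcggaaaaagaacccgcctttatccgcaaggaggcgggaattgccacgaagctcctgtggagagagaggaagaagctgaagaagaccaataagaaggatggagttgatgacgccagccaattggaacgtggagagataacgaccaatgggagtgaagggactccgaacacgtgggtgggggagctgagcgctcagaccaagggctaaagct
Atp5g2 (chr15:102671048-102671297, minus strand): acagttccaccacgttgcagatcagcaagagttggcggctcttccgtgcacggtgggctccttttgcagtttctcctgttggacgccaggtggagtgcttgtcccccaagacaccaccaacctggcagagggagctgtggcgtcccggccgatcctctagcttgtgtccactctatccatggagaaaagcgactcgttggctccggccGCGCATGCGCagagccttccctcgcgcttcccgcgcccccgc
Atp5g3 (chr2:73911327-73911576, minus strand): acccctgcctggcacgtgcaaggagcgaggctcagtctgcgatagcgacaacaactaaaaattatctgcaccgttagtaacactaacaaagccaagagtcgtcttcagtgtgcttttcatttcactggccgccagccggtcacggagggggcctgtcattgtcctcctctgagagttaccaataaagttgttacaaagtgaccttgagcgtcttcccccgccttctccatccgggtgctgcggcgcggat
Within these windows only the Atp5g2 sequence held a match. Atp5g3 had one beyond its window, beginning 12 bases after the start.

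Of the c ring genes, Atp5g1 had the widest movement. Its arrays read 11.16, 10.90 and 10.99 at -24 h, 10.71, 10.47 and 10.51 at 0 h, 11.43, 11.15 and 11.18 at 24 h, 11.64, 11.42 and 11.25 at 48 h, and 11.21, 11.50 and 11.32 at 144 h. It thus fell by 0.45 (SE 0.12, adjusted p 0.00752) over the day before induction and rose by 0.69 (SE 0.12, adjusted p 7.79e-05) at 24 h, 0.87 (SE 0.12, adjusted p 5.36e-07) at 48 h and 0.78 (SE 0.12, adjusted p 2.45e-06) at 144 h, and the 0 h arrays lay below all the others listed. Atp5g2 stood at 12.26, 12.13 and 12.17 at 0 h and at 12.10, 12.18 and 12.22 at 144 h, a difference of -0.02 (SE 0.07, adjusted p 0.856) with overlapping arrays. Atp5g3 went from 12.67, 12.76 and 12.84 to 12.99, 12.95 and 13.01, a rise of 0.23 (SE 0.06, adjusted p 0.00439).

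The changes of the 3 genes differed from one another. At 144 h the change of Atp5g1 exceeded that of Atp5g2 by 0.80 (SE 0.09, 95% interval 0.61 to 0.99, adjusted p 1.66e-09 over the 4 pairs, limma) and that of Atp5g3 by 0.55 (SE 0.12, 95% interval 0.30 to 0.80, adjusted p 0.000141). Atp5g2 lay below Atp5g3 by -0.25 (95% interval -0.38 to -0.12, adjusted p 0.00065). Over the day before induction the order was turned, with Atp5g1 minus Atp5g2 at -0.63 (95% interval -0.82 to -0.44, adjusted p 3.22e-07). In all these comparisons the two-sided exact permutation test over the 6 arrays gave 0.10, the smallest p that 3 arrays against 3 allow. The Atp5g1 values come from 1 bright probe set (mean level 10.87); its second probe set, at a mean level of 3.11, gave 0.02 (SE 0.09) at 144 h. A second Atp5g2 probe set, at a mean level of 4.62, gave -1.06 (SE 0.17, adjusted p 5.91e-06 over all probe sets). The dim and the bright probe sets of these genes thus gave different readings.

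**Figure D4:**
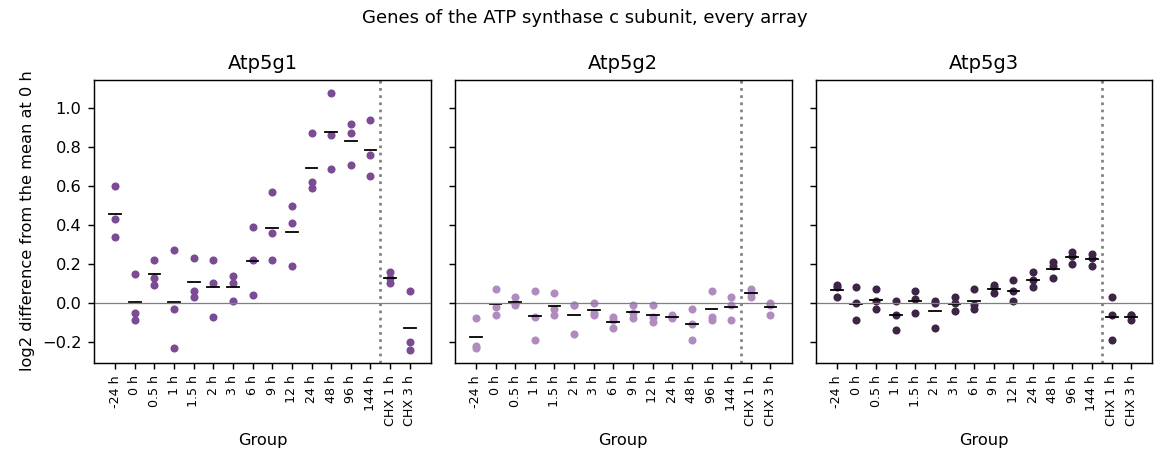
Log2 difference from the gene's mean at 0 h (y axis) of Atp5g1, Atp5g2 and Atp5g3 on every array of the 16 groups (x axis; CHX, cycloheximide; points, arrays; bars, mean of 3). Atp5g1 falls to 0 h and rises to a mean of 0.87 at 48 h, Atp5g3 reaches 0.24 at 96 h and 0.23 at 144 h, and Atp5g2 stays near 0 after induction.

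The comparison of 0 h with 24 h before covers a day in growth medium. Among the subunits 4 members had risen and 2 had fallen, beside 7.26% and 5.86% of all genes, and the median member differed by -0.02. When only genes above the median level were tested, 5 of 62 members had risen and 4 had fallen, and 15.3% of those genes had risen. With arrays centred on 13 housekeeping genes, which moved the median of all genes from 0.01 to 0.16, the split became 14 risen to 1 fallen (all genes 13.8% and 3.47%) and the median member 0.13. As deposited, these 13 genes were themselves lower at 0 h, with a median of -0.14, 0 risen and 2 fallen. The muscle genes had in the same interval already risen, 8 of 10 with a median of 3.24. Ndufv3, an accessory subunit of the NADH-binding arm, rose from 10.69, 10.86 and 10.86 at -24 h to 11.44, 11.24 and 11.26 at 0 h, by 0.51 (SE 0.10, adjusted p 0.000176). Ndufa1, an X-linked subunit needed for assembly, rose by 0.42 (SE 0.08, adjusted p 0.000115), Ndufa13 by 0.31 (SE 0.07, adjusted p 0.00156) and the complex III hinge protein Uqcrh by 0.30 (SE 0.09, adjusted p 0.0141). Ndufa5, of the arm that passes electrons to ubiquinone, fell from 10.20, 10.05 and 10.34 to 9.60, 9.47 and 9.79, by 0.58 on the log2 scale (SE 0.15, adjusted p 0.00759). In each of these genes the arrays of the 2 times did not overlap. The call of Atp5g1 was lost without replicate 1 of -24 h, that of Ndufa5 without replicate 2 of 0 h or 3 of -24 h, and that of Uqcrh without replicate 1 or 3 of 0 h or 1 of -24 h.

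Cycloheximide asks which RNA changes can proceed without new protein. The 6 arrays with the drug lay higher as a whole, with array medians of 4.20 to 4.24, so the counts at 1 h and 3 h are given for the values as they stand and once more after all 48 arrays were quantile normalized again. As deposited, at 1 h 2 members had risen and 1 had fallen, beside 24.2% and 0.418% of all genes, with a median member at 0.06 and a median of all genes at 0.20. After normalizing again the counts were 0 and 1 (all genes 4.42% and 2.36%) and the median member lay at -0.06, so that its sign turned. Centred on housekeeping genes they were 0 and 17 (all genes 4.3% and 3.65%). At 3 h, 2 members had risen and 8 had fallen as deposited, beside 30.9% and 3.42% of all genes, with a median of -0.11 against 0.19 for all genes. After normalizing again 0 had risen and 21 had fallen (all genes 12.9% and 11.1%), with a median of -0.18 and 60 of 64 below 0. Fits that left out an array were made on the values as deposited: the count at 1 h was 5 without replicate 1 and 1 without replicate 2 of the treated arrays, and 7 without replicate 1 of the untreated ones.

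As deposited, the 8 subunits called fallen at 3 h belonged to complexes I and V. After normalizing again the 21 were 11 of complex I, 7 of complex V, 2 of complex III (Uqcrc2 at -0.34, adjusted p 0.0258, and Uqcrh at -0.25, adjusted p 0.0226) and 1 of complex II (Sdhb at -0.29, adjusted p 0.014). The values that follow are as deposited. Ndufv1 read 10.46, 10.59 and 10.49 in untreated cells and 10.18, 10.27 and 10.20 with the drug, a fall of 0.29 on the log2 scale (SE 0.08, adjusted p 0.00606), without overlap. Its partner in the NADH-binding module, Ndufv2, differed by -0.31 (SE 0.08, adjusted p 0.00398) and Ndufb9 by -0.34 (SE 0.10, adjusted p 0.00524). Ndufb7 and Ndufa13 were also called fallen, by 0.29 and 0.26 on the log2 scale. In complex V the peripheral stalk subunits Atp5h (-0.27, SE 0.08, adjusted p 0.00509) and Atp5j (-0.31, SE 0.11, adjusted p 0.0202) were called fallen. The gamma subunit Atp5c1 differed by -0.22 (SE 0.08, adjusted p 0.0365) but was called in only 1 of the 6 fits that left out an array, while its dim second probe set, at a mean level of 3.91, went the other way by 0.52 (SE 0.17, adjusted p 0.0162 over all probe sets). The call of Atp5j was lost without replicate 3 of the treated or 1 of the untreated arrays, and that of Ndufb9 without replicate 3 of the treated. The call of Ndufv1 was lost without _s_at, _x_at and _a_at probe sets (limma, adjusted p 0.623). There a bright probe set, at a mean level of 10.13, stood for the gene.

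Ndufa4l2 and Ndufs1 rose with the drug at 3 h as deposited. Ndufa4l2, the Ndufa4 paralog known to be induced by hypoxia, read 4.91, 4.79 and 4.75 in untreated cells at 1 h and 5.75, 5.35 and 5.20 with the drug, a rise of 0.61 (SE 0.15, adjusted p 0.00294), and rose by 0.52 (SE 0.15, adjusted p 0.00732) at 3 h. Ndufs1 rose by 0.29 at 3 h (SE 0.10, adjusted p 0.0204) and was not called without replicate 1 of either group. After normalizing again these differences were 0.28 for Ndufa4l2 at 1 h, 0.21 at 3 h, and 0.10 for Ndufs1, none called. At 1 h Sdhd, with a rise of 0.32 (SE 0.10, adjusted p 0.0133), was not called without replicate 2 of either group, and Ndufa13 differed by -0.22 (SE 0.07, adjusted p 0.0207) with overlapping arrays. The drug's effect at 3 h minus that at 1 h, tested as an interaction in limma, was called for 0 of 64 members (4.29% of all genes; 11 members at an unadjusted p under 0.05), or for 2 without replicate 1 of the treated arrays of 1 h. It lay below 0 for 56 of 64 members, with a median of -0.16 against 0.01 for all genes. After normalizing again 0 were called, 51 lay below 0 and the median was -0.12 against 0.01. With housekeeping centring 0 were called, 17 lay below 0, and the sign of the median turned, to 0.07 against 0.23 for all genes.

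**Figure D5:**
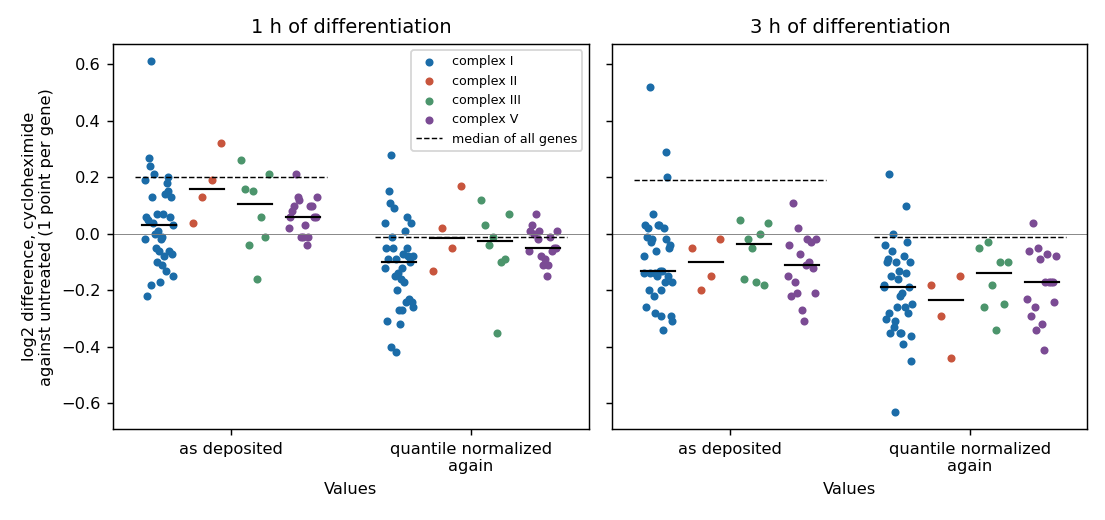
Log2 difference between cycloheximide-treated and untreated cells (y axis) for each of the 64 subunits (points, by complex; black bars, median of the complex) at 1 h and 3 h, as deposited and after quantile normalization again (x axis). The dashed line is the median of all genes, which lies at 0.20 and 0.19 as deposited and at -0.01 after normalizing again; at 3 h most subunits lie below it on either scale.

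Genes of neighbouring pathways were counted in the same way at 144 h, where 13.5% of all genes were called risen and 14.9% fallen with a median of 0.04. Of 15 genes of complex IV, 6 had risen at 144 h, with a median of 0.21; the leaders were the isoforms of heart and skeletal muscle, Cox6a2 by 5.32 (SE 0.38), Cox8b by 5.28 (SE 0.24) and Cox7a1 by 4.26 (SE 0.20). The highest difference among the 64 members, on the probe sets used, was 1.02. Of 26 assembly factors, which build complexes I, II, III and V without being part of them, 11 had risen with a median of 0.31, among them the complex III factors Uqcc1 by 1.83 (SE 0.17) and Uqcc2 by 0.94 (SE 0.09) and the complex I factors Ecsit by 1.43 (SE 0.23) and Foxred1 by 0.78 (SE 0.18). With cycloheximide at 3 h, 16 of these factors had risen and 0 had fallen as deposited, with a median of 0.50, beside 30.9% of all genes risen, 3.42% fallen and a median of 0.19. After normalizing again 10 had risen and 1 had fallen with a median of 0.17 (all genes 12.9% and 11.1%, median -0.01). Of 7 carriers and subunits outside the rule, 2 had risen, cytochrome c1 (Cyc1, 0.48, SE 0.08) and the acyl carrier subunit Ndufab1 (0.56, SE 0.14), and the electron transfer flavoprotein Etfa had fallen (-0.36, SE 0.09).

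Of 15 genes of the citrate cycle and pyruvate dehydrogenase, 5 had risen and 1 had fallen at 144 h, with a median of 0.23. Pdhb, of pyruvate dehydrogenase, rose by 0.60 (SE 0.08), and Suclg2, the GTP-forming succinyl-CoA ligase subunit, fell by 1.12 on the log2 scale (SE 0.11). Of 20 genes of mitochondrial membranes and import, 4 had risen (20%) and 2 had fallen (10%) with a median of 0.03, near the shares and the median of all genes; Timm23 (import channel) was higher by 0.52 (SE 0.10) and the chaperone Hspd1 lower at -0.83 (SE 0.15). Of 17 regulators of mitochondrial biogenesis, 2 had risen and 2 had fallen (11.8% each way, near the shares of all genes): Polrmt, the mitochondrial RNA polymerase, by 0.69 (SE 0.17) and Esrra by 0.39 (SE 0.11), against Gabpa at -1.27 (SE 0.41, adjusted p 0.0172) and Nrf1 at -0.39 (SE 0.15, adjusted p 0.0485). NRF1, the GA-binding protein of which Gabpa is the DNA-binding part, and ERR-alpha, encoded by Esrra, are known to bind promoters of respiratory genes.

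RefSeq promoter entries (300 bases, from 250 before to 50 after the start, GRCm38.p6) matched 54 of the 64 members by gene identifier. The motifs were chosen with these data known and were searched on both strands. The NRF1 motif was found in 13 of the 54 (24.1%), beside 4.78% of all 27025 promoters and 7.98% of the 14368 promoters of tested genes. The letters CCGGAAG, bound by factors of the ETS family such as GABPA, were found in 13 (24.1%; 9.12% of all, 13.8% of tested genes), the ERR motif CAAGGTCA in 4 (7.41%; 1.53% and 1.33%), and the muscle E-box CAGCTG in 5 (9.26%; 16.1% of each). No match overlapped a match of another motif. These 6 NRF1 matches, each with 10 bases on either side, are shown because they include members that rose and members that did not; capitals mark the match.
Ndufs5 (chr4:123718265-123718294, minus strand): gctgcttgctGCGCAGGCGCagacccgctg
Sdhd (chr9:50603909-50603938, minus strand): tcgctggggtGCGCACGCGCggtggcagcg
Atp5k (chr5:108434430-108434459, minus strand): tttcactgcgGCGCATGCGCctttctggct
Atp5h (chr11:115420041-115420070, minus strand): gaccccgacgGCGCAGGCGCcgcgcccgcc
Sdha (chr13:74350319-74350348, minus strand): cgtttacaggGCGCAGGCGCaccaccactc
Ndufa8 (chr2:36049349-36049378, minus strand): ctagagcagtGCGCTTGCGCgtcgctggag
Ndufs5, a subunit of the membrane arm of complex I, rose at 144 h by 0.69, Sdhd by 0.36, Atp5k by 0.42 and Atp5h by 0.28, while Sdha (0.00) and Ndufa8 (0.18) were not called. Over all 54 members, 6 of the 13 with an NRF1 match had risen and 32 of the 41 without, with medians of 0.23 and 0.44. With the ETS letters 11 of 13 had risen and without them 27 of 41, with medians of 0.47 and 0.33. A match describes these letters only and shows no binding.

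Other probe sets of the same genes gave a second reading. The 129 probe sets with a single member symbol left 65 beside those used. At 144 h 37 of these were called risen, 3 fallen and 25 not called. Of the 44 with a mean level of 6 or more, 33 were called risen, and of the 21 dimmer ones, 4. Ndufb8, an accessory subunit of complex I, was the one member whose probe sets were called in opposite directions during differentiation: the bright one, at a mean level of 11.01, gave 0.41 (SE 0.10, adjusted p 0.00113 over all probe sets) at 144 h, and one at 5.61 gave -0.60 (SE 0.13, adjusted p 0.000524). At 48 h and 96 h they were opposed as well, with 0.43 and -0.63, and 0.45 and -0.48.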

How the data were processed

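The authors deposited log2 values made with RMA from 48 MOE430v2 arrays, per the submitters' processing notes; its version, and whether one run covered every array, are not given in the sources used here. The values were used as deposited. Of 45101 probe sets (64 controls), 34945 had 1 gene symbol in the platform annotation, 932 had several and 9211 no gene; those with 1 covered 18193 genes. The probe set of highest mean over the arrays stood for each gene; 16 members' probe sets end in _s_at or _x_at and 19 in _a_at, so related transcripts may contribute. A linear model with 1 coefficient per group (32 residual degrees of freedom) was fitted to all genes with limma 3.58.1 in R 4.3.3, with eBayes defaults, two-sided, and tested on simulated data. Within groups arrays correlated at 0.9818 to 0.9955; their number limits the precision. The 4 pairs of paralogs were compared on per-array differences with the same group coefficients. This was a separate limma fit, with the spread estimated from these rows alone.

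Members, gene lists and motifs were chosen with earlier results of these data known. Named members were, by complex and comparison, the up to 3 of largest called rise and fall with non-overlapping arrays, a fixed set of catalytic and paralogous subunits, and up to 4 called genes per neighbouring pathway. Alternatives were eBayes with trend and robust settings, quantile normalization again, centring on housekeeping genes, means of probe sets, probe sets without _s_at, _x_at and _a_at, a level filter, only the arrays compared, the replicate number as a block, and each array left out.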

Additional observations from a re-analysis of the deposited data

How the results depend on the processing

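The counts of members called at 96 h (46) and 144 h (45) moved by less than 1.5 times in every alternative run, except that with only the arrays compared 30 were called at 144 h, a ratio at the 1.5 limit; the counts at 24 h and 48 h fell to 12 and 23 with only the arrays compared and to 14 and 27 of the 51 members with a probe set not ending in _s_at, _x_at or _a_at, and at 48 h to 20 (18 risen, 2 fallen) with housekeeping centring, which moved the median of all genes there from 0.06 to -0.10. For 0 h against -24 h, 6 became 15 with housekeeping centring and 3 without those probe sets. With the mean of probe sets 1 member was called at 1.5, 9 and 12 h, 0 from 24 h to 48 h, 1 from 48 h to 96 h, 9 for cycloheximide at 1 h and 1 for the interaction. Housekeeping centring called 1 at 12 h, 0 from 24 h to 48 h and 17 for cycloheximide at 1 h. From 24 h to 48 h 1 was called with trend and robust settings, with quantile normalization and without those probe sets, and 0 with only the arrays compared. From 48 h to 96 h 1 was called with trend and robust settings and among genes above the median level. Cycloheximide gave 1 call at 1 h with only the arrays compared, and with quantile normalization 1 at 1 h and 21 at 3 h.

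Same-numbered arrays of different groups deviated together in 300 of 360 pairs (correlation over 0.1; median 0.31, from -0.46 to 0.74; -0.17 between different numbers), and 44 of 48 arrays correlated best with their own number. The labels do not say what a number marks, so it was not taken as pairing. Adding the replicate number as a block to the model gave counts of 13 for 0 h against -24 h, 1 at 1.5 h, 5 at 9 h, 4 at 12 h, 6 from 12 h to 24 h, 6 from 24 h to 48 h, 3 from 48 h to 96 h, 7 for cycloheximide at 1 h and 3 for the interaction. Calls among all genes grew with the block as well in several of these comparisons. For 0 h against -24 h it called 10.7% of all genes risen, beside 7.26% without it. For cycloheximide at 1 h these shares were 32.4% and 24.2%. In the 9 h comparison the block called 2.59% risen, where 1.36% were called in either direction without it. For 12 h these were 2.65% and 2.82%, which does not show whether calls grew.

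Leaving out 1 array at a time gave 4 to 7 members for 0 h against -24 h, 0 to 2 at 9 h, 0 to 1 at 12 h, 10 to 26 at 24 h, 31 to 41 at 48 h, 41 to 44 at 96 h, 41 to 45 at 144 h, 0 to 3 from 24 h to 48 h, 0 to 1 from 48 h to 96 h, 1 to 7 and 7 to 10 for cycloheximide at 1 h and 3 h, 0 to 2 for the interaction and 46 to 50 for the F-test.

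Of 870 alternatives to the 63 named member results, 773 kept direction and call, 94 lost the call and 3 reversed: Atp5g1 for 0 h against -24 h without _s_at, _x_at and _a_at probe sets (0.01), and Atp5c1 with cycloheximide at 3 h with the mean of probe sets (0.15) and without those probe sets (0.52). The difference between Atp5g1 and Atp5g3 over 0 h against -24 h was -0.15 (limma p 0.0785) with the mean of probe sets. Without them the calls of Atp5g1 and Uqcrq at 24, 48, 96 and 144 h were lost, since only dim probe sets remained. The causes of the other changes were not tested. Dim probe sets limit what can be said of Ndufb4, Ndufa4l2 and Ndufb1.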
